A study of Mus musculus with 12 samples.

Results

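Primary granule protein genes are the genes for the proteins that young neutrophil precursors pack into their first granules, together with genes that are switched on in the same precursors. The 9 genes described here were fixed by name as Mpo, Elane, Prtn3, Ctsg, Ms4a3, Serpinb1a, Nkg7, Gstm1 and Srgn. Every probe set that the platform annotation gives to 1 of these symbols was taken. That made 13 probe sets of 45101 on the array, for 9 of the 18193 genes that had a probe set with a single symbol. Mpo, Elane, Prtn3, Ctsg, Ms4a3, Nkg7 and Srgn had 1 probe set each, Serpinb1a had 2 and Gstm1 had 4. All 13 were above the median signal of the data set on all 12 arrays, so none was lost to the filter on dim probe sets.

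Total RNA of mouse cells was hybridised to single-colour Affymetrix Mouse430_2 arrays. Control mice carried Stat5a and Stat5b, the paired genes of the STAT5 transcription factors that act below the GM-CSF receptor, and knockout mice lacked both in blood cells. Cells of each genotype were untreated or treated, which made 4 groups of 3 arrays each, untreated and treated control and untreated and treated knockout. The labels name the treatment with the letters GMP, which also occur in titles of untreated arrays, so here the word treatment alone is used and the agent, dose and duration are not stated. The titles place the arrays on 3 dates, with 1 array of every group per date, and arrays are compared within a date. The strain, age, way of deletion and number of mice behind each sample are not given in the labels used here. Separate animals are not stated either, so a p-value here reflects the spread between arrays alone, and that spread may be technical. The title of the series poses the question, which is how far STAT5A/B governs the making of granulocytes under GM-CSF.

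Primary (azurophil) granules form at the promyelocyte stage, and the genes for their contents are transcribed for that short time and then shut down, before the secondary granule genes come on. The contents fall into a peroxidase (Mpo), serine proteases of 1 family (Elane, Prtn3, Ctsg), a proteoglycan core that packs them (Srgn) and a cytosolic serpin that inhibits the proteases (Serpinb1a). Ms4a3 and Nkg7 encode membrane proteins and Gstm1 a glutathione transferase, and Ms4a3 marks progenitors committed to the granulocyte and monocyte lineage.

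Date 2 differed in quality from dates 1 and 3. The 3' over 5' signal ratio, which rises with shortened RNA, reached 20.8 to 266 with the Actb probe sets there, against 1.14 to 2.05 on dates 1 and 3, and 28.2 to 80.7 with those of Gapdh, against 1.56 to 3.90. Date 2 arrays had a highest signal of 67520 to 145869, and the other arrays of 19055 to 23413. The treated knockout array of date 2 also has a number tag in its title that the other 3 of that date do not share. Several results that rest on date 2 are therefore given with and without it. Treatment changes of Prtn3, Srgn and the Gstm1 sets within a genotype are estimated from all dates only. The same holds for the search for genes most like each member and for the gene and marker lists, so these were not checked without date 2. The Stat5a signal was 375 to 1147 on the 6 control arrays and 26.7 to 101 on the 6 knockout arrays, and Stat5b was 287 to 1531 against 1.80 to 60.5. Of 12 markers of granulocyte-macrophage progenitors, 11 passed the filter and all 11 had a group mean above the median signal in each of the 4 groups. In bulk samples such as these, fewer cells of a type and less RNA per cell cannot be told apart.

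Promoter windows of 250 bases before the RefSeq transcription start (build GRCm38.p6) were found for 8 of the 9 genes, all but Serpinb1a. They were searched on both strands for the letters TTCNNNGAA, bound by STAT factors, GAGGAA, bound by PU.1 and other ETS factors, AACGG, bound by MYB, and TTGCNNAA, bound by C/EBP factors. The first occurred in 7.02% of 32851 windows in that table, the second in 23.3%, the third in 14.5% and the fourth in 9.56%. The pieces that hold a match are printed in the direction of the gene, with the matched letters in capitals, because they show which of these genes share a layout and which hold the STAT letters.
Elane, chr10:79886162-79886311, plus strand, the last 150 bases before the start: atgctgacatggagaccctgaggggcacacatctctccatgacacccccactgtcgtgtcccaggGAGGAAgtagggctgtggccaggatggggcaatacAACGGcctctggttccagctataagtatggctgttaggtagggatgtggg
Prtn3, chr10:79879517-79879666, plus strand, the last 150 bases before the start: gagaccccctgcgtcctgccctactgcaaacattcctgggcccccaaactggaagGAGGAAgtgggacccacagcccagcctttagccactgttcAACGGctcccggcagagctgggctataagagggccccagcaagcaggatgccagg
Mpo, chr11:87793534-87793633, plus strand, the first 100 bases of the window: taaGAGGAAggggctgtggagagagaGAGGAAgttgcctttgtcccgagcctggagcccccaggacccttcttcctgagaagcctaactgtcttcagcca
Ctsg, chr14:56102725-56102824, minus strand, the first 100 bases of the window: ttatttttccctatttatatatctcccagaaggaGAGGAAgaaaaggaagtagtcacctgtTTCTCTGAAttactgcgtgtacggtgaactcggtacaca
Nkg7, chr7:43436888-43436987, plus strand, the first 100 bases of the window: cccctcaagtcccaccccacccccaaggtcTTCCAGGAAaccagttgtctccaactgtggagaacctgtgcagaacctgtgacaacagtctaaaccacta

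Elane and Prtn3, which lie next to each other on chromosome 10, had the same order of letters, GAGGAA from -85 and AACGG from -50 in Elane, and GAGGAA from -95 and AACGG from -55 in Prtn3, counted from the base before the start as -1. GAGGAA also lay from -247 and -224 in Mpo and from -216 in Ctsg. The STAT letters were found in Ctsg from -189 to -181 (TTCTCTGAA) and in Nkg7 from -220 to -212 (TTCCAGGAA). The 4 sets of letters were not in the windows of Srgn, Ms4a3 and Gstm1, and TTGCNNAA was in none of the 8 genes' windows. A match is a stretch of letters and not a measured binding site.

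In control cells the signals of Elane, Ms4a3, Nkg7, the 4 Gstm1 sets and the first of the 2 Serpinb1a sets were lower with treatment on each of the 3 dates, that of Mpo was higher on each, and those of Prtn3, Ctsg and Srgn lay close to those of untreated cells. None of the 13 probe sets passed the test over all probe sets in either genotype, at limma's Benjamini-Hochberg adjusted p under 0.05. When the response was averaged over both genotypes, a contrast added after the data had been seen, the first Serpinb1a set, Nkg7, Ms4a3 and the Gstm1 set 1425627_x_at fell. No probe set of the 9 genes differed by the test between knockout and control cells. Changes are on the log2 scale of signal plus 13 and are given with their standard errors (n = 3 arrays a group).

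**Figure D1:**
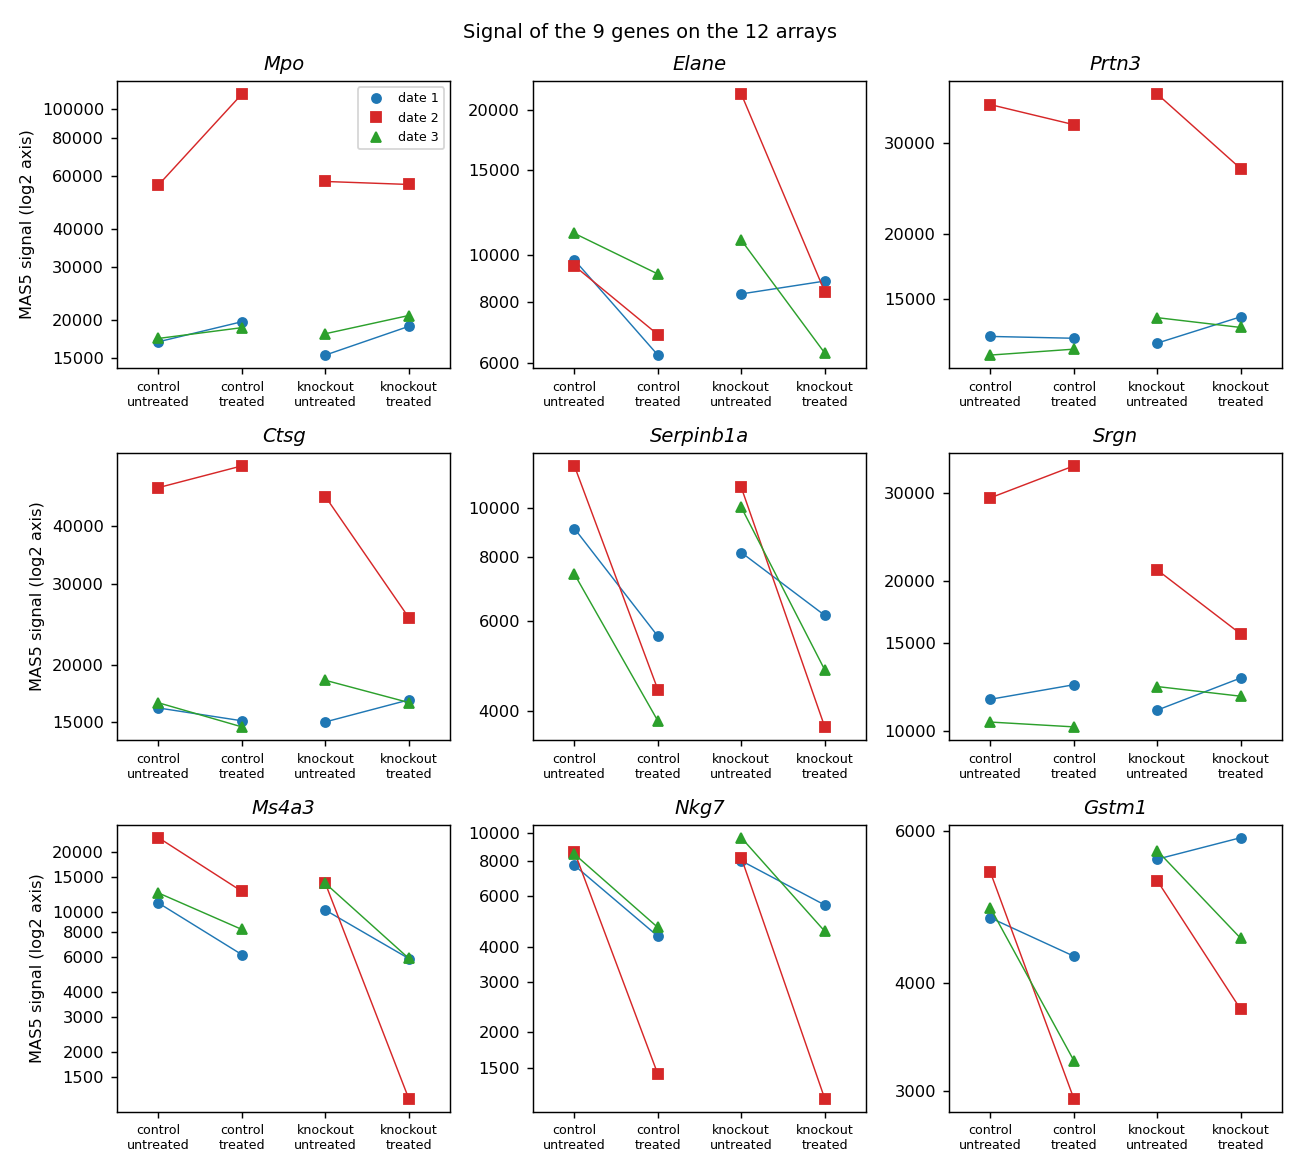
Signal of the probe set that stands for each of the 9 genes on the 12 arrays (log2 axis, 1 scale per gene), with lines joining untreated and treated arrays of 1 genotype and date. The first Serpinb1a set and Nkg7 lie lower in treated than in untreated cells on every date and in both genotypes, while Mpo, Prtn3, Ctsg and Srgn are separated by date 2 rather than by treatment.

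Mpo encodes myeloperoxidase, the heme enzyme that makes hypochlorous acid. Mpo signals in control cells were 16942, 55927 and 17378 on dates 1, 2 and 3 without treatment and 19738, 111812 and 18869 with it. In knockout cells Mpo was at 15309, 57457 and 18012 before and 19054, 56165 and 20697 after treatment. Date 2 was high in all 4 groups, the groups overlapped in both genotypes, and the treated array was the higher one in 5 of 6 pairs of a date. The log2 change was 0.45 ± 0.26 in control cells (adjusted p = 0.359), with 0.22, 1.0 and 0.12 on the 3 dates, and 0.16 ± 0.26 in knockout cells (adjusted p = 0.751). Without date 2 these changes were 0.17 and 0.26. The Mpo signal lay at 80.3 to 91.6% of the highest signal of its array on dates 1 and 3. Whether the top of the scale limited Mpo was not tested.

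Elane encodes neutrophil elastase. Elane signals in control cells were 9778, 9507 and 11097 without and 6216, 6854 and 9146 with treatment. All 3 treated control arrays lay below all 3 untreated ones. In knockout cells Elane was at 8318, 21545 and 10746 before and 8843, 8408 and 6277 after treatment, where the groups overlapped and the untreated array of date 2 was the highest of the 12. The log2 change was -0.47 ± 0.33 in control cells (adjusted p = 0.465) and -0.68 ± 0.33 in knockout cells (adjusted p = 0.233), with 0.09, -1.36 and -0.77 on the 3 dates in the latter. Without date 2 these changes were -0.47 and -0.34. Neither passed the test with or without date 2, and over all 3 dates the 95% confidence intervals of treated over untreated signal reached from 0.435 to 1.20 and from 0.375 to 1.04.

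Prtn3 encodes proteinase 3, the neighbour of Elane that shares the arrangement of letters in the printed promoters. Prtn3 in control cells gave 12701, 35517 and 11692 without and 12598, 32493 and 12004 with treatment. Its signals in knockout cells were 12330, 37215 and 13803 before and 13857, 26730 and 13216 after it. The pairs of a date lay close together on dates 1 and 3, and date 2 was high in every group. The log2 change was -0.03 ± 0.22 in control cells and -0.12 ± 0.22 in knockout cells (adjusted p = 0.951 and 0.776), with intervals of -0.52 to 0.45 and -0.61 to 0.36. Likeness of Prtn3 to Elane over the arrays was low, with Pearson's r of 0.395 over 12 arrays after removing each date's mean and -0.10 over the 8 arrays of dates 1 and 3.

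Ctsg encodes cathepsin G, a chymotrypsin-like protease. Ctsg in control cells was at 16080, 48603 and 16504 without treatment and at 15077, 54208 and 14623 with it. In knockout cells the Ctsg values were 14992, 46475 and 18476 before and 16742, 25312 and 16524 after treatment. Groups overlapped in both genotypes, and the pairs of a date differed by -0.17 to 0.16 on the log2 scale except that of date 2 in knockout cells, at -0.88. The change was -0.04 ± 0.28 in control and -0.29 ± 0.28 in knockout cells (adjusted p = 0.960 and 0.568), and without date 2 it was -0.13 in control and within 0.01 of 0 in knockout cells.

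Srgn encodes serglycin, the proteoglycan whose sulphated chains hold the cationic proteases. Srgn in control cells gave 11584, 29386 and 10428 without and 12389, 34058 and 10197 with treatment. Its knockout values were 11020, 21053 and 12286 before and 12782, 15666 and 11750 after treatment. Again date 2 was the highest of each group and the groups overlapped. The change was 0.09 ± 0.29 in control cells and -0.09 ± 0.29 in knockout cells (adjusted p = 0.893 and 0.883).

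Serpinb1a encodes a serpin that inhibits neutrophil elastase, cathepsin G and proteinase 3. Serpinb1a (1416318_at) in control cells was at 9119, 12109 and 7419 without and at 5600, 4397 and 3817 with treatment. In knockout cells it was at 8181, 10980 and 10038 before and at 6155, 3715 and 4809 after treatment. In both genotypes every treated array lay below every untreated one. The log2 change was -1.04 ± 0.28 in control cells (adjusted p = 0.0653), with -0.70, -1.46 and -0.96 on the 3 dates, and -1.01 ± 0.28 in knockout cells (adjusted p = 0.0537), with -0.41, -1.56 and -1.06. Neither passed the test. The confidence intervals reached from 0.315 to 0.752 and from 0.321 to 0.767 of the untreated signal. Without date 2 the changes were -0.83 ± 0.26 (adjusted p = 0.103) and -0.73 ± 0.26 (adjusted p = 0.117). Quantile normalization gave -1.0 (adjusted p = 0.0294) in control and -0.95 (adjusted p = 0.0277) in knockout cells, both past the threshold.

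The dimmer second probe set of Serpinb1a (1448301_s_at, whose suffix marks probes shared with related transcripts) did not repeat this on every array. It gave 1371, 2240 and 1096 in control untreated, 866, 3570 and 748 in control treated, 1057, 1721 and 1454 in knockout untreated and 861, 942 and 732 in knockout treated cells. The control treated array of date 2, at 3570, was the highest of the 12, whereas the other 5 treated arrays lay below all 6 untreated ones. Changes were -0.18 ± 0.38 in control cells (adjusted p = 0.838) and -0.71 ± 0.38 in knockout cells (adjusted p = 0.277), and -0.60 and -0.64 without date 2.

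Ms4a3 encodes a membrane protein of the MS4A family that is made in granulocyte-monocyte progenitors. Ms4a3 signals in control cells were 11129, 23583 and 12489 without and 6145, 12727 and 8208 with treatment, lower on each date but with overlapping groups. In knockout cells they were 10257, 13953 and 13953 before and 5875, 1173 and 5887 after treatment, where all treated arrays lay below all untreated ones. The treated knockout array of date 2, at 1173, was the lowest Ms4a3 value of the 12 and had the title with the other number tag. Changes were -0.78 ± 0.59 in control cells (adjusted p = 0.500) and -1.87 ± 0.59 in knockout cells (adjusted p = 0.0803). Without date 2 the knockout change was smaller but more even between arrays, at -1.02 ± 0.22, and passed the test (adjusted p = 0.0347), and the control change was -0.73 ± 0.22 (adjusted p = 0.0948).

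Nkg7 encodes a small membrane protein of cytolytic granules, best known from natural killer cells. Nkg7 in control cells was at 7710, 8613 and 8445 without and at 4348, 1425 and 4667 with treatment. Its knockout values were 8002, 8198 and 9645 before and 5597, 1169 and 4526 after treatment. Every treated array lay below every untreated one in both genotypes, and the 2 treated arrays of date 2 were the lowest. Changes were -1.42 ± 0.45 in control cells (adjusted p = 0.102) and -1.47 ± 0.45 in knockout cells (adjusted p = 0.0711). On dates 1 and 3 they were -0.82 and -0.85 in control and -0.51 and -1.09 in knockout cells, and neither genotype passed the test without date 2 either (adjusted p = 0.0729 and 0.0711). Of 14 markers of T and natural killer cells 5 passed the filter, and their summed signal was 376 to 890 in control untreated, 427 to 897 in control treated, 390 to 535 in knockout untreated and 471 to 1580 in knockout treated cells. The defining markers Cd3e, Cd3d, Cd3g and Ncr1 were among those that did not pass the filter. Of the 5 that did, 4, 4, 3 and 4 had a group mean above the median signal, in the same group order. The 5 include the granzyme gene Gzmb, which itself rose with treatment in knockout cells, by 1.98 ± 0.41 (adjusted p = 0.0183). In control cells Gzmb differed by 1.29 ± 0.41 (adjusted p = 0.107). The median change of the 5 was 0.11 in control and 0.02 in knockout cells. The part of T and natural killer cells in the Nkg7 signal was not tested.

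Gstm1 encodes a mu-class glutathione transferase, and its 4 probe sets measure 1 gene and are not independent. Its representative set (1448330_at) gave 4762, 5379 and 4891 in control untreated and 4300, 2941 and 3255 in control treated cells. Knockout cells gave 5569, 5258 and 5696 before and 5897, 3731 and 4509 after treatment. The control groups did not overlap, the knockout groups did, and the knockout pair of date 1 was the only one with the treated array higher. Changes of this set were -0.53 ± 0.23 in control cells (adjusted p = 0.221) and -0.25 ± 0.23 in knockout cells (adjusted p = 0.553). A dimmer set (1425627_x_at) gave 1151, 1516 and 1432 in control untreated, 639, 931 and 646 in control treated, 1051, 1395 and 2059 in knockout untreated and 846, 720 and 1237 in knockout treated cells. It was lower with treatment on every date in both genotypes, by -0.89 ± 0.28 (adjusted p = 0.101) and -0.66 ± 0.28 (adjusted p = 0.175). The set 1416416_x_at changed by -0.45 ± 0.24 in control and -0.27 ± 0.24 in knockout cells (adjusted p = 0.311 and 0.524). The dimmest set, 1425626_at, changed by -0.74 ± 0.27 and -0.41 ± 0.27 (adjusted p = 0.146 and 0.376). All 4 Gstm1 sets had non-overlapping control groups, with changes from -0.89 to -0.45, and overlapping knockout groups, with changes from -0.66 to -0.25. Of all probe sets, 6.37% had every treated array below every untreated one in control cells and 8.42% in knockout cells. Between the genotypes, the change of none of these 4 sets differed by the test. Knockout minus control, the values ran from 0.18 to 0.33, with standard errors of 0.33 to 0.39. Sets ending in _x_at hold probes that match related genes, and Gstm2 to Gstm5 are close relatives of Gstm1, so such sets are uncertain for this gene.

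**Figure D2:**
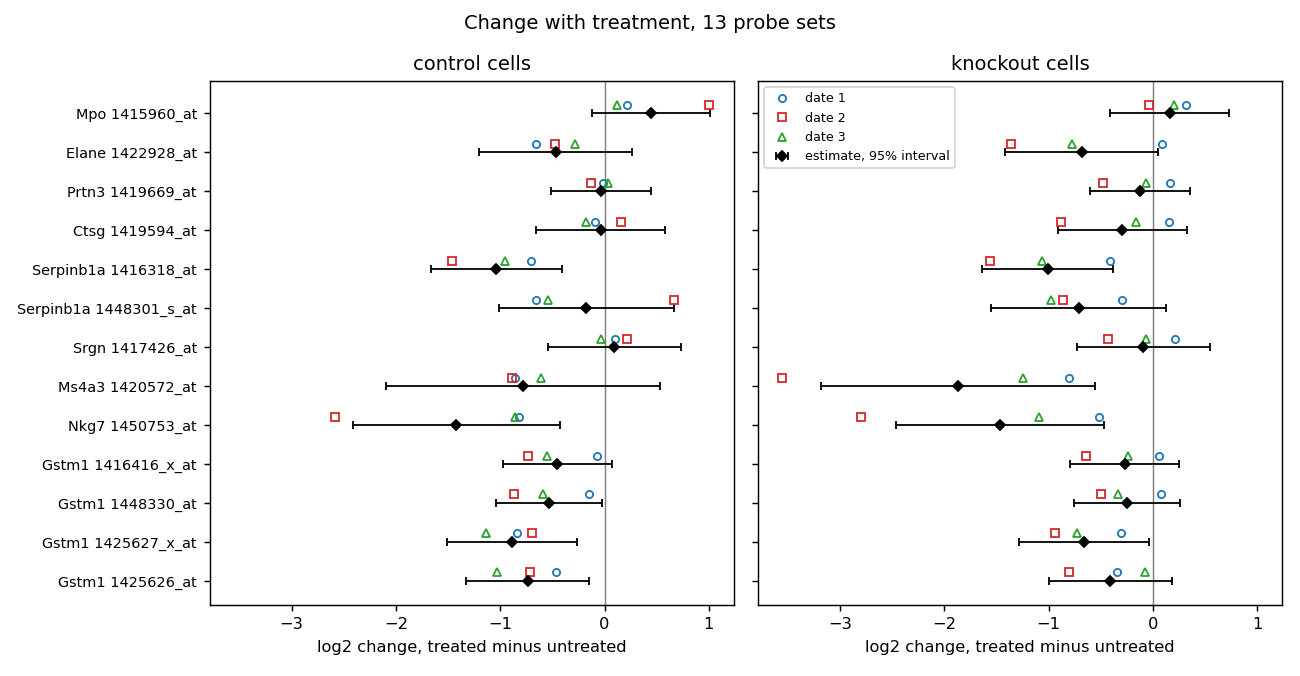
Log2 change with treatment (treated minus untreated) of the 13 probe sets in control and in knockout cells, with the change on each of the 3 dates as open symbols and the estimate with its 95% confidence interval in black. The intervals of the first Serpinb1a set and of Nkg7 lie below 0 in both panels, while those of Prtn3, Ctsg and Srgn span 0.

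Counted over the 13 probe sets, 0 were called in control cells, where 4.70% of the 21363 probe sets tested were called, and 0 in knockout cells, where 8.66% were. At an unadjusted p under 0.05 there were 5 and 4 of 13, against 20.8% and 24.9% of all probe sets. The median change was -0.47 in control and -0.41 in knockout cells, against -0.01 and 0.01 over all probe sets, and 11 and 12 of the 13 changes were below 0, against 50.8% and 49.2% of all. In control cells 7 probe sets of 4 genes (Elane, Serpinb1a, Nkg7 and Gstm1) had all treated arrays below all untreated ones, against 6.37% of all probe sets. In knockout cells 4 probe sets of 3 genes (Serpinb1a, Ms4a3 and Nkg7) did, against 8.42%. The treated array was the lower one on each of the 3 dates for 8 probe sets of 5 genes in control cells, against 24.6% of all, and for 6 probe sets of 4 genes in knockout cells, against 23.8%. Changes below 0 were thus more frequent among the 13 than among all probe sets, but probe sets of 1 gene repeat each other. In control cells they include those of Prtn3 and Ctsg, at -0.03 and -0.04. The 9 genes were also chosen with earlier results of these data known, so these shares describe them and are no test. The half-width of the 13 confidence intervals was 0.484 to 1.31, with a median of 0.621.

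Averaging the treatment change over both genotypes used all 6 pairs of a date. This contrast was added after the single comparisons had been seen. The first Serpinb1a set fell by 1.02 ± 0.20 (limma, adjusted p = 0.00628) and was lower in 6 of 6 pairs. Nkg7 fell by 1.44 ± 0.32 (adjusted p = 0.0109), also in 6 of 6 pairs. The Gstm1 set 1425627_x_at fell by 0.77 ± 0.20 (adjusted p = 0.0212) and Ms4a3 by 1.33 ± 0.42 (adjusted p = 0.0494), each in 6 of 6 pairs. These were 4 of 13 probe sets, against 19.9% of all probe sets called in this contrast, a share from which 4 of 13 is not far. The remaining Gstm1 sets were not called, at -0.39 ± 0.16 for the representative 1448330_at, -0.36 ± 0.17 for 1416416_x_at and -0.57 ± 0.19 for 1425626_at (adjusted p = 0.119, 0.154 and 0.0560). Nor was the second Serpinb1a set, at -0.44 ± 0.27 (adjusted p = 0.274). Elane differed by -0.57 ± 0.23 (adjusted p = 0.111), Mpo by 0.30 ± 0.18 (adjusted p = 0.268), Ctsg by -0.16 ± 0.20, Prtn3 by -0.08 ± 0.15 and Srgn by 0.00 ± 0.20.

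Without date 2 the same 4 probe sets still fell, by 0.78 ± 0.18 for Serpinb1a, 0.82 ± 0.16 for Nkg7, 0.75 ± 0.19 for Gstm1 and 0.88 ± 0.15 for Ms4a3 (adjusted p = 0.0227, 0.0126, 0.0294 and 0.00906). The second Serpinb1a set joined them, falling by 0.62 ± 0.18 (adjusted p = 0.0466). The changes of Nkg7 and Ms4a3 were thus smaller on the 8 arrays of dates 1 and 3 than on all 12. Under the alternative settings tried, the call of the first Serpinb1a set held in 24 of 24 and the Nkg7 call in 23 of 24 (not without the date block, adjusted p = 0.0646). The call of the Gstm1 set 1425627_x_at held in 18 of 23 and the Ms4a3 call in 13 of 24. This Gstm1 set lost its call without control untreated replicate 1 or 2, knockout untreated replicate 3 or control treated replicate 3, with an adjusted p of at most 0.0621, and without the date block (0.0946). Ms4a3 lost it in 8 of the 12 fits that left out 1 array, with an adjusted p of at most 0.119.

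**Figure D3:**
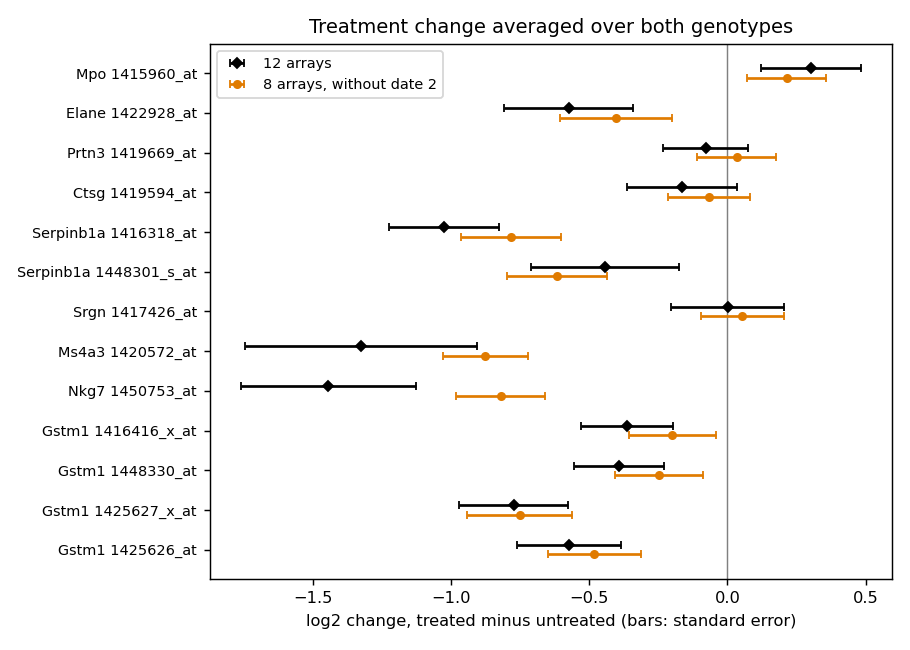
Log2 change with treatment averaged over both genotypes for the 13 probe sets, with its standard error, from all 12 arrays and from the 8 arrays of dates 1 and 3. Nkg7 moves from -1.44 to -0.82 and Ms4a3 from -1.33 to -0.88 when date 2 is left out, and the first Serpinb1a set from -1.02 to -0.78.

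Whether the response depended on genotype was asked with the difference between the 2 responses, knockout minus control. It was called for 0 of the 13 probe sets and for 0% of all probe sets in limma, where 549 of 21363, and 0 of the 13, had an unadjusted p under 0.05. The differences ran from -1.08 ± 0.84 for Ms4a3 to 0.33 ± 0.38 for the Gstm1 set 1425626_at, with a median of -0.09. For Serpinb1a (1416318_at) the difference was 0.03 ± 0.40 with an interval of -0.86 to 0.92, and for Nkg7 -0.05 ± 0.63 with an interval of -1.45 to 1.36. For Mpo it was -0.29 ± 0.36 and for Elane -0.21 ± 0.47, and without date 2 both turned sign, to 0.09 ± 0.29 and 0.12 ± 0.41. The half-width of the 13 intervals, which are not adjusted for the number of probe sets, had a median of 0.878. A call after adjustment needs a larger difference, so the size that could be detected with these arrays mostly lay above that. The Ms4a3 difference rested on date 2, where it was -2.67, and was -0.29 ± 0.31 without it.

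Without treatment, knockout and control cells were compared for all 13 probe sets, and 0 were called, against 0.00936% of all probe sets (2 of 21363). An unadjusted p under 0.05 was reached by 0 of the 13 and by 520 of all. Differences (knockout minus control) ran from -0.39 ± 0.27 for the dimmest Gstm1 set to 0.30 ± 0.33 for Elane, with a median of 0.05. That of Mpo was -0.02 ± 0.26, of Prtn3 0.09 ± 0.22, of Ctsg 0.00 ± 0.28, of Serpinb1a (1416318_at) 0.05 ± 0.28 and of Nkg7 0.06 ± 0.45. The Elane value came from date 2, where knockout cells were higher by 1.18, and was -0.14 without that date.

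With treatment, 0 of the 13 differed by the test between knockout and control cells, against 0.0609% of all probe sets (13 of 21363). Of the genes taken once, 0.0592% (7 of 11815) were called lower in treated knockout cells, and none of the 9 was among them. An unadjusted p under 0.05 was reached by 1 of the 13 and by 1807 of all. The 1 was Ms4a3, at -1.32 ± 0.59 (unadjusted p = 0.0488, adjusted p = 0.584), with -0.06, -3.43 and -0.48 on the 3 dates and -0.27 ± 0.22 without date 2. Mpo, Ctsg, Srgn and the second Serpinb1a set also lay lower in knockout cells on date 2, at -0.99 to -1.91, and between -0.05 and 0.20 on the other dates. The representative Gstm1 set was higher in treated knockout cells on each date, by 0.45, 0.34 and 0.47, a difference of 0.42 ± 0.23 that did not pass the test (adjusted p = 0.594). The Gstm1 set 1416416_x_at was also higher on each date, by 0.34, 0.10 and 0.47. The dimmer Gstm1 sets did not repeat this, with 0.40, -0.36 and 0.92 for 1425627_x_at and -0.10, -0.69 and 0.59 for 1425626_at.

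Averaged over both treatments, a contrast also added after the data had been seen, the knockout differed from control for 0 of 13 probe sets, against 0.0234% of all. The values ran from -0.78 for Ms4a3, with an interval of -1.71 to 0.15 (-0.13 ± 0.15 without date 2), to 0.28 for the representative Gstm1 set, with an interval of -0.08 to 0.64. All 13 intervals included 0.

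**Figure D4:**
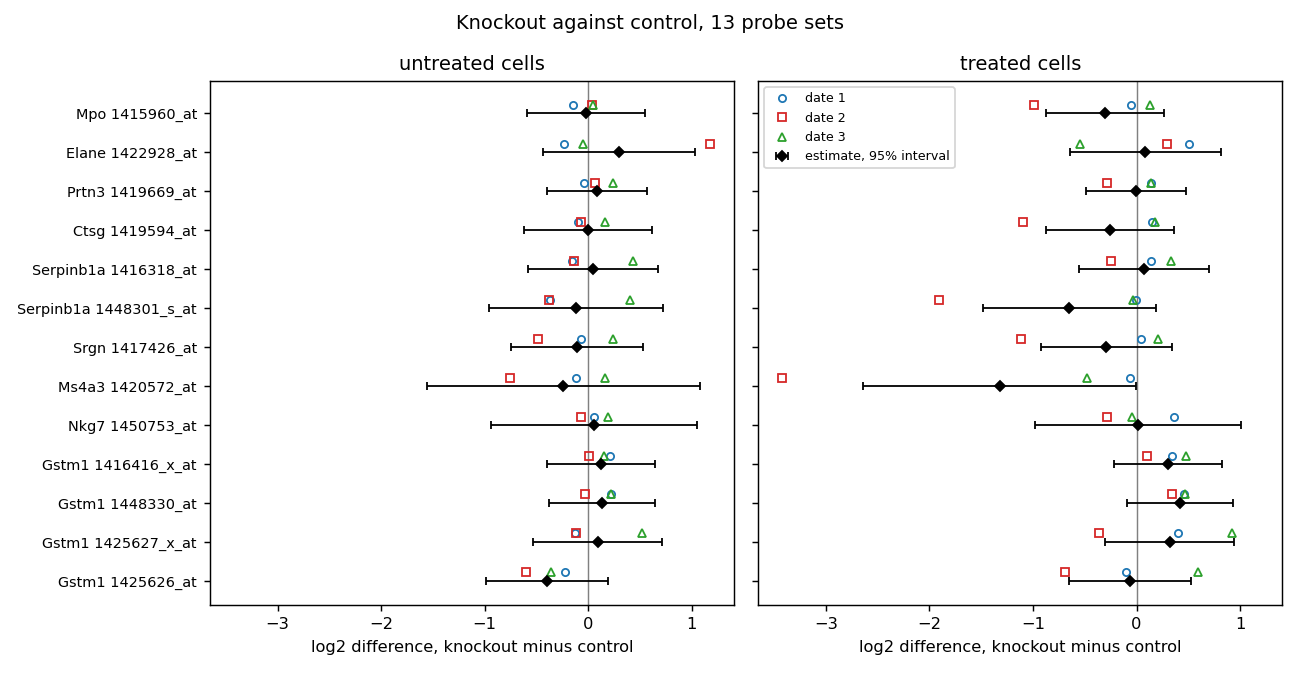
Log2 difference between knockout and control cells (knockout minus control) of the 13 probe sets, untreated and treated, with each date as an open symbol and the estimate with its 95% confidence interval in black. In treated cells the date 2 points of Mpo, Ctsg, Srgn, Ms4a3 and the second Serpinb1a set lie near -1 or below. Their points of dates 1 and 3 lie near 0, except that of Ms4a3 on date 3, at -0.48.

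Across the 12 arrays, after each date's mean was removed, the members fell into unlike patterns. Serpinb1a and Nkg7 were most alike, with Pearson's r of 0.953, and 0.945 over the 8 arrays without date 2. Ms4a3 and Nkg7 had r of 0.752, and 0.929 without date 2. Ctsg and Srgn had 0.885 and 0.750. Ctsg and Ms4a3 went from 0.872 to 0.281 and Mpo and Ms4a3 from 0.07 to -0.86 when date 2 was left out, so these depended on that date. Mpo ran opposite to Nkg7, with -0.55 over 12 and -0.82 over 8 arrays. The 36 pairs share the same arrays, scaling and treatment, and these values describe them without a test.

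**Figure D5:**
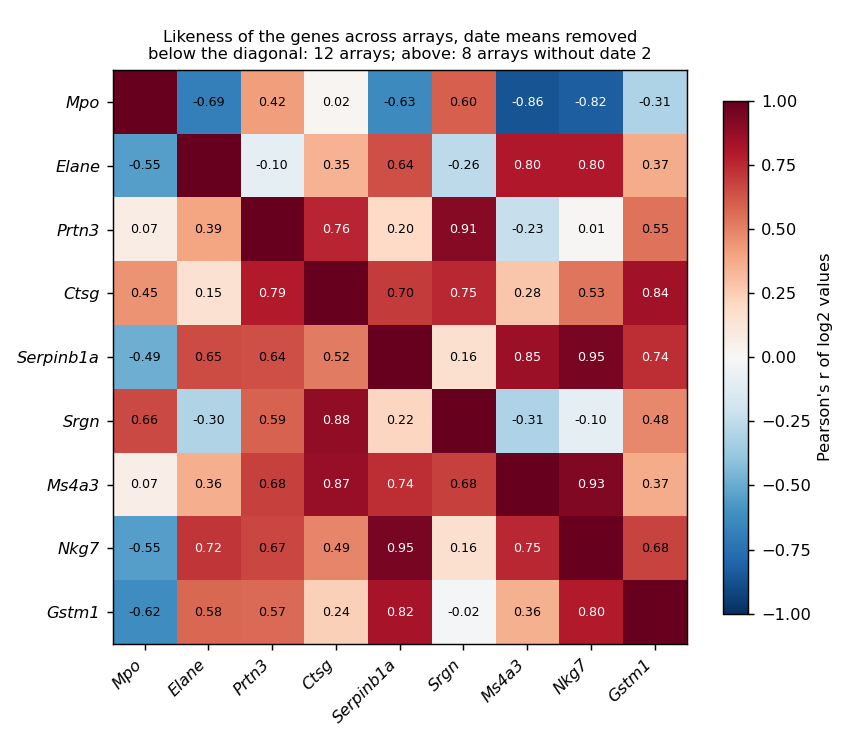
Pearson's r between the representative probe sets of the 9 genes after removing each date's mean log2 value, over 12 arrays below the diagonal and over the 8 arrays without date 2 above it. Serpinb1a with Nkg7 keeps 0.95 on either side of the diagonal, while Ctsg with Ms4a3 goes from 0.87 to 0.28.

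Among all other genes tested, the 3 most like each member over the 12 arrays by the same measure were named. For Serpinb1a they were Nasp (r = 0.989), Cbr1 (0.987) and Hpf1 (0.986), and for Nkg7 Mrpl17 (0.991), Dmc1 (0.989) and Dach2 (0.985). Ms4a3 was followed by Mapkapk3 (0.984), Rpp14 (0.983) and Mgam (0.976), and Mgam changed by -2.05 ± 0.54 in treated knockout cells (adjusted p = 0.0434). For Mpo they were Tpt1 (0.993), Pspc1 (0.976) and Rps4x (0.976), for Elane Nop58 (0.987), Gatc (0.952) and Pecr (0.939), and for Prtn3 Timm23 (0.964), Ube2d3 (0.942) and Mob4 (0.934). Ctsg was followed by Psmd14 (0.977), Cdca8 (0.974) and Cox6b1 (0.958), Srgn by Atp5g3 (0.975), Metap2 (0.973) and Ndufc2 (0.973), and Gstm1 by Atp5c1 (0.978), Oser1 (0.978) and Mdh1 (0.960). No member was among the 3 of another, because members were left out of this search. With 12 arrays and 11815 genes, values this high describe the arrays only.

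Regulators that act on these genes were taken from a list of 25, of which 23 were tested once per gene. In control cells 3 rose and 2 fell, against 3.39% of all genes higher and 1.77% lower, and in knockout cells 6 rose and 1 fell, against 5.87% and 3.45%. Cebpb, a C/EBP factor of emergency granulopoiesis, rose by 1.68 ± 0.30 in control and 1.56 ± 0.30 in knockout cells (adjusted p = 0.0128 in both). Nab2, a corepressor of EGR factors, rose by 3.31 ± 0.45 and 3.74 ± 0.45, and Id2, an inhibitor of helix-loop-helix factors, by 1.38 ± 0.33 and 2.32 ± 0.33. Gfi1b, Egr2 and Mxd1 passed the test in knockout cells, rising by 2.62 ± 0.68, 1.66 ± 0.34 and 1.67 ± 0.34. Klf4, a factor of the monocyte fate, fell by 1.32 ± 0.30 in control and by 1.27 ± 0.30 in knockout cells, and Irf8, another such factor, fell by 1.39 ± 0.32 in control cells (adjusted p = 0.0371) and differed by -0.64 ± 0.32 in knockout cells (adjusted p = 0.248). None of these genes was called for the difference between the responses.

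The activators best known for Mpo, Elane and Prtn3 did not pass the test. Cebpa differed by -1.12 ± 0.38 in control and -0.66 ± 0.38 in knockout cells (adjusted p = 0.126 and 0.317), and Myb by -0.92 ± 0.33 and -1.0 ± 0.33 (adjusted p = 0.138 and 0.0866). Gfi1, a repressor needed for the neutrophil fate, differed by -1.37 ± 0.56 and -1.77 ± 0.56 (adjusted p = 0.195 and 0.0788). Spi1, the gene of PU.1, differed by 0.83 ± 0.32 and 1.0 ± 0.32 (adjusted p = 0.170 and 0.0816), and Runx1 by 1.12 ± 0.41 and 0.27 ± 0.41 (adjusted p = 0.149 and 0.738). Cebpe was not analysed here.

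Other enzymes of primary granules and lysosomes, 17 tested of 21 listed, had 0 called in control cells and 2 higher and 2 lower in knockout cells. Of all genes taken once, 3.39% were higher and 1.77% lower in control cells and 5.87% and 3.45% in knockout cells. Lyz2, the myeloid lysozyme gene, rose in knockout cells from a signal of 3335 ± 695 to 9721 ± 1935 (SD, n = 3). This change was 1.54 ± 0.33 (adjusted p = 0.0215), and in control cells Lyz2 differed by 0.14 ± 0.33. The difference between the responses of Lyz2, at 1.40 ± 0.47, was not called. The lysosomal protease gene Ctsb rose by 0.86 ± 0.22 in knockout cells, while the sulphatase gene Arsb and the phosphatase gene Acp5 fell by 1.31 ± 0.33 and 1.36 ± 0.29. In control cells Ctsb, Arsb and Acp5 differed by 0.23 ± 0.22, -1.11 ± 0.33 and -0.87 ± 0.29 (adjusted p = 0.604, 0.0820 and 0.122). None of the 17 was called for the difference between the responses. The median change of the list was -0.28 in control and -0.02 in knockout cells, and that of all genes taken once was -0.04 and -0.02.

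Genes that process and sort the granule proteins, 23 tested of 24, had 1 higher and 1 lower in control cells and 0 higher and 2 lower in knockout cells. The shares of all genes were 3.39% and 1.77% in control and 5.87% and 3.45% in knockout cells. Rab27a, a GTPase of granule release, had a signal of 2926 ± 441 before and 1006 ± 248 after treatment in control cells and of 3021 ± 782 and 938 ± 150 in knockout cells (SD, n = 3). It fell by 1.55 ± 0.23 (adjusted p = 0.00627) and by 1.65 ± 0.23 (adjusted p = 0.00305). Alad, an enzyme of heme synthesis, fell by 1.36 ± 0.30 in knockout cells, and Furin, a proprotein convertase, rose by 1.05 ± 0.22 in control cells. In the other genotype Alad differed by -1.11 ± 0.30 and Furin by 0.73 ± 0.22 (adjusted p = 0.0663 and 0.0690). Ctsc, whose product removes the activation dipeptide of Elane, Prtn3 and Ctsg, differed by 0.32 ± 0.21 and 0.36 ± 0.21 (adjusted p = 0.436 and 0.328). Of 14 genes that build the chains of serglycin 10 were tested and 0 were called in either genotype.

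Protease inhibitors other than Serpinb1a, 13 tested of 20, had 4 higher and 0 lower in each genotype, against 3.39% of all genes higher in control and 5.87% in knockout cells. Serpinb2 rose by 4.95 ± 1.04 in control and 5.05 ± 1.04 in knockout cells and Serpinb8 by 3.31 ± 0.51 and 4.25 ± 0.51, both from signals near the added constant. Cstb, an inhibitor of cysteine cathepsins, rose by 1.28 ± 0.27 and 1.33 ± 0.27. Spint1 rose by 3.34 ± 0.62 in control cells and Serpinb9, an inhibitor of granzyme B, by 1.28 ± 0.27 in knockout cells. In the other genotype Spint1 differed by 1.67 ± 0.62 and Serpinb9 by 0.24 ± 0.27, and neither was called for the difference between the responses.

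Of 22 glutathione enzymes 20 were tested, with 1 higher in control cells and 2 in knockout cells and 0 lower. Of all genes 3.39% were higher in control and 5.87% in knockout cells. Gclm and Gclc encode the subunits of the enzyme that limits glutathione synthesis. They rose by 1.54 ± 0.35 and 1.45 ± 0.28 in knockout cells, Gclm also by 1.44 ± 0.35 in control cells. Gclc differed by 1.01 ± 0.28 in control cells (adjusted p = 0.0728). Among 18 tested paralogs of the members 0 were called in control cells, and in knockout cells 2 rose, Serpinb9 and the granzyme gene Gzmb (1.98 ± 0.41). None of the 18 was called for the difference between the responses.

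Secondary and tertiary granule genes, the next wave of neutrophil maturation, had 2 higher of 26 tested in control cells and 3 in knockout cells, with 0 lower. Of all genes 3.39% were higher in control and 5.87% in knockout cells. The members that rose were Adam8 (3.14 ± 0.53 and 4.62 ± 0.53), a metalloprotease, Arg2 (2.90 ± 0.44 and 4.04 ± 0.44), an arginase, and, in knockout cells, Olfm4 (0.91 ± 0.23). None of the 26 was called for the difference between the responses. Ltf, the lactoferrin gene, differed by -0.56 ± 0.55 and 0.35 ± 0.55 and Camp, the cathelicidin gene, by -1.33 ± 0.49 and -0.05 ± 0.49 (adjusted p = 0.619, 0.748, 0.153 and 0.965).

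Markers of other cell types moved beside the members in part. As a background, 3.39% of all genes taken once were called higher and 1.77% lower in control cells, and 5.87% and 3.45% in knockout cells. Of the 11 granulocyte-macrophage progenitor markers, the GM-CSF receptor gene Csf2rb rose by 1.66 ± 0.29 and 1.51 ± 0.29 and Cd33 by 3.5 ± 0.25 and 3.37 ± 0.25. No other marker of this list was called, and the median change of the 11 was -0.11 in control and -0.16 in knockout cells. Their summed signal, in which bright genes weigh most, was 19927 to 28826 in control untreated, 32844 to 38646 in control treated, 20505 to 30430 in knockout untreated and 27057 to 36777 in knockout treated cells. Of 13 tested monocyte markers Cd14 rose by 2.63 ± 0.46 and 3.47 ± 0.46, F13a1 fell by 1.38 ± 0.25 and by 1.5 ± 0.25, and Cx3cr1 rose by 2.22 ± 0.34 in knockout cells, and their summed signals overlapped, at 32545 to 60233, 35801 to 58083, 35235 to 60366 and 46348 to 53499 in the same group order. The 4 tested B lineage markers of 10 summed to 605 to 1027, 324 to 421, 777 to 1150 and 380 to 730, lower with treatment, with 0 called. Their median change was -0.96 in control and -0.27 in knockout cells. The 4 tested eosinophil markers of 9 summed to 802 to 2658, 410 to 1254, 764 to 3111 and 374 to 1533, also with 0 called. Of mast cell and basophil markers 6 of 10, of erythroid markers 8 of 12 and of megakaryocyte markers 8 of 11 were tested. The erythroid gene Car1 alone was called, as it fell by 1.21 ± 0.27 in control cells. Median changes in control and knockout cells were -0.64 and -0.43 for mast cell and basophil and -0.59 and 0.04 for eosinophil markers. They were -0.57 and -0.06 for erythroid and 0.02 and 0.42 for megakaryocyte markers. No marker was called for the difference between the responses. Cd79a, Ebf1, Ccr3 and Il5ra, which define B cells and eosinophils, were among those that did not pass the filter. Of the 4 tested B lineage markers 3, 2, 2 and 1 had a group mean above the median signal, in the same group order. Of the 4 tested eosinophil markers 4, 3, 4 and 3 did. The part of these cell types in the lower signals of Serpinb1a, Nkg7, Ms4a3 and Gstm1 was not tested.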

How the data were processed

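The authors deposited 1 intensity per probe set and array on a linear scale, which came from MAS5, per the submitters' processing notes, with version and scaling target not given in the sources used here. Each array's mean after trimming 2% at either end was 500.003 to 500.004, so the arrays shared a scale.

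Only the 34945 probe sets with 1 symbol in the platform annotation were used (932 had several, 9160 none, 64 were controls). Values were log2 of intensity plus 13, the rounded 20th percentile, which understates changes of dim genes. Probe sets above the overall median of 70.5 on 3 or more of the 12 arrays were tested (21363 probe sets, 11815 genes). The 4 groups were fitted in limma 3.58.1 (R 4.3.3), array date being a block (6 residual and 4.21 prior degrees of freedom), with Benjamini-Hochberg adjustment over all probe sets and a threshold of 0.05. Lists used 1 probe set per gene, the one with the highest mean, from the same fit. The script was tested on simulated data.

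The titles give the dates. As a check of the pairing, deviations from group means correlated at 0.367 to 0.750 for 18 same-date pairs and -0.68 to 0.435 for 36 other pairs. All probe sets of the 9 genes are named. From each list, at most 4 called genes per direction with the largest change were named, and Cebpa, Gfi1, Myb, Spi1, Runx1, Irf8 and Ctsc always. Ltf and Camp were named after their values were seen. The markers named as not passing the filter were picked outside the naming rule above. Members and lists were chosen with earlier results of these data known. Alternatives changed the block, arrays, weights, constant, filter, scaling, variance model and features. Promoters are from RefSeq (GRCm38.p6). Figures used matplotlib 3.10.9 in Python 3.11.15.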

Additional observations from a re-analysis of the deposited data

How the results depend on the processing

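No change of the 13 probe sets that was called under any setting had the other direction as reported. Of 2208 values under 25 alternative settings, 2007 kept direction and side of the threshold, 144 uncalled values changed sign, 40 became called and 17 calls were lost. The number of the 13 probe sets called in control cells, 0 as reported, was 1 with date as a random block, a constant of 50, a filter on all 12 arrays, quantile normalization or an intensity trend in the variance model, and 4 with array quality weights. In knockout cells, 0 as reported, it was 1 with date as a random block, without date 2 or with 1 probe set per gene, and 3 with array quality weights, a constant of 50, the filter on all 12 arrays, quantile normalization or the intensity trend. Without the replicate block it was 0 in each genotype and 1, not 4, for the averaged response, and with array quality weights the latter was 7. Leaving out 1 array gave 0 to 1 in control cells (1 without knockout treated replicate 2), 0 to 1 in knockout cells (1 without control treated replicate 2) and 2 to 6 for the averaged response (2 without control untreated replicate 1 or 2, knockout untreated replicate 3 or control treated replicate 3). The probe sets that passed in 1 genotype under these settings were the first Serpinb1a set, Nkg7, Ms4a3 and the 2 dimmer Gstm1 sets. The cause of these differences was not tested.

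Over all probe sets the counts of 1004 in control and 1849 in knockout cells were 172 and 343 without the block, 4099 and 4140 with array quality weights, 548 and 1045 without a filter, 215 and 949 with only the groups compared, and 264 to 1219 and 572 to 2550 without 1 array. They were 1381 and 2262 with a constant of 50, 1205 and 1966 with the filter on all 12 arrays and 1173 and 1954 with quantile normalization. Further counts were 1363 and 2213 with the intensity trend, 1053 and 1864 with date as a random block and 1418 and 1975 without date 2. With 1 probe set per gene 800 and 1321 were called. The averaged response had 4258, 1234 without the block, 7694 with array quality weights and 2909 to 4630 without 1 array. Signals of all 13 probe sets lay above the median on every array.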
